A study of Mus musculus with 4 samples.

Results

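The cells described here are macrophages with transcripts of *Folr2* and *Mrc1* in mouse heart grafts, called Folr2 Mrc1 macrophages. They were chosen by their counts of unique molecular identifiers (UMIs, 1 for each captured transcript). A cell was a member if it had over 200 genes, under 20% mitochondrial UMIs, at least 5 UMIs of *C1qa*, at least 1 of *Folr2* and at least 2 of *Mrc1*. It also had to have under 5 UMIs of *Cxcl9*, under 2 of *Mki67* and 0 of *Cd3e* and *Cdh5*. This rule found 435 cells among the 44626 cells that passed the limits on genes and mitochondrial UMIs, and among the 53824 deposited cells. Because the rule reads the counts, the levels of its 7 genes are a description of the choice.

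The study placed hearts of BALB/c donors (labelled Balb/C, the allogeneic grafts) or C57BL/6J donors (the syngeneic grafts) into the abdomen of C57BL/6J recipients, with male mice of 8 to 10 weeks, and took the grafts on day 5. Each of the 4 grafts, 2 allogeneic and 2 syngeneic, was digested with enzymes to single cells and sequenced as 3′ transcript ends on the 10x Chromium platform, with no sort for cell type. The deposited table merges the 4 libraries, and the number at the end of each cell barcode, 1 to 4, marks the library. No file or label used here pairs a number with a graft, so the grafts were not compared, the libraries are not replicates, and no value carries a test. A graft holds cells of its donor and cells that entered from the recipient, and none of the measures used here tells them apart.

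Macrophages are phagocytes found in every organ. In the mouse heart, some are seeded before birth and renew locally, and others come from blood monocytes that enter through the receptor CCR2. The long-lived cells are known for FOLR2 (a folate receptor), the mannose receptor MRC1, the hyaluronan receptor LYVE1, the carbonyl reductase CBR2 and the phosphatidylserine receptor TIMD4. They clear dead cells and debris, store iron from heme and shed growth factors, and they carry MHC class II molecules, which show peptides to CD4+ T cells, to a varying degree. Complement C1q, whose A chain is *C1qa*, is made by many tissue macrophages.

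The members by library were 89, 73, 259 and 14 cells in libraries 1 to 4. As a share of the kept cells these were 0.862% (95% exact binomial interval 0.693 to 1.06), 0.555% (0.435 to 0.697), 2.63% (2.32 to 2.96) and 0.124% (0.0677 to 0.208). The rule was also applied after cells were thinned to 5000 UMIs, with shallower cells left out of members and total alike. The shares of the thinned cells were 0.909, 1.12, 2.31 and 0.116%, and libraries 1 and 2 changed order. Whether the thinning or the loss of shallower cells changed the order was not tested. Library 3 alone held 59.5% of the members, and the other 3 libraries 176. Among cells with at least 5 *C1qa* UMIs, of which the libraries had 313, 195, 786 and 2316, members made up 28.4, 37.4, 33.0 and 0.604%. On that scale libraries 1 to 3 lay close together, with intervals that overlapped, and library 4 lay far below them. Intervals here and below cover counting error only, and shares also depend on which cells survived dissociation. Members had a median of 12569, 15279, 13665 and 30066 UMIs in libraries 1 to 4, against 5621, 4771, 8806 and 12159 in all kept cells, and a median of 3452, 3734, 3549 and 5083 genes.

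**Figure D1:**
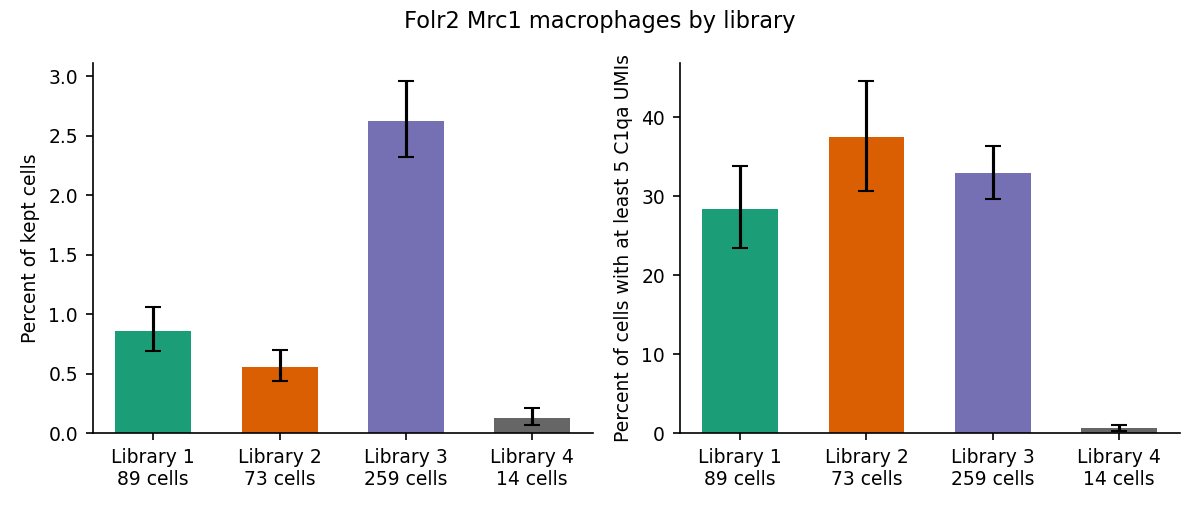
Folr2 Mrc1 macrophages as a percent of the kept cells (left) and of the cells with at least 5 *C1qa* UMIs (right) in each of the 4 libraries. Bars are the shares and lines their exact 95% binomial intervals. Library 3 had the highest share of kept cells, 2.63%, and library 4 the lowest on both scales, with the limit on *Cxcl9* in the rule.

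The limits of the rule weighed differently on the libraries. Missing the rule by *Folr2* alone were 119, 56, 359 and 29 cells of libraries 1 to 4, a total of 563 that exceeds the 435 members. *Cdh5*, the cadherin of endothelial cells, alone kept out 23, 45, 98 and 1 cells, and *Mrc1* alone 19, 6, 30 and 24. The limit on *Cxcl9*, a chemokine that interferon gamma induces, alone kept out 2, 0, 1 and 104 cells. In library 4 that limit therefore set aside more cells than the 14 it left in. Without it, the shares of kept cells were 0.882, 0.555, 2.64 and 1.04%, so library 4 then lay above libraries 1 and 2. The 4 remaining criteria each kept out at most 31 cells in all. At the *Folr2* limit, the 138 members with 1 UMI had 67.0 CPM of *Cbr2* and 2262 of *H2-Aa*, and the 563 cells just outside had 27.4 and 4659. CPM is the UMIs of a gene in all the cells of a set, per 1000000 non-mitochondrial UMIs of the same cells. At the *Mrc1* limit, the 30 members with 2 UMIs had 51.7 CPM of *Cbr2* and the 26 cells with 1 had 122, so *Cbr2* was no lower outside that limit. With *C1qa*, 1 cell lay just inside (5 or 6 UMIs) and 4 just outside (3 or 4), with 70.1 and 0 CPM of *Cbr2*. With *Cxcl9*, 13 lay just inside (3 or 4 UMIs) and 4 just outside (5 or 6), with 20.9 and 27.0 CPM of *Cbr2*.

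The members carried macrophage genes that the rule did not read. *Adgre1*, which encodes the macrophage antigen F4/80, was at 656, 354, 725 and 208 CPM in libraries 1 to 4, with a UMI in 100, 93.2, 100 and 92.9% of the cells. Endothelial cells, here cells with at least 3 *Cdh5* UMIs and 0 of *Cd3e*, should lack it and had a UMI in 2.34, 4.97, 7.99 and 13.9%, with a median of 6161, 7387, 8377 and 11867 UMIs. *Csf1r*, the receptor for the macrophage growth factor CSF1, was at 1148, 524, 1019 and 381 CPM. The lysosomal protein gene *Cd68* was at 775, 803, 738 and 710.1 CPM and the Fc receptor gene *Fcgr1* at 272, 325, 319.8 and 810.4. None of the 14 general macrophage genes outside the rule was at 0 in the members. Of the 4 genes given as marks of these cells, *Folr2*, *Mrc1* and *C1qa* are in the rule and *Cbr2* is not. *Cbr2* was at 182 CPM (95% interval 159.5 to 208) in library 1, 270.2 CPM (95% interval 242 to 301) in library 2, 158 CPM (95% interval 146 to 171) in library 3 and 7.53 CPM (95% interval 1.55 to 22.0) in library 4. Libraries 1 to 3 thus held *Cbr2* and the 14 cells of library 4 had almost none, with a UMI in 2 of them. Nothing measured here shows how long a cell had been in the graft, so the label of resident cells could not be checked.

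In the GRCm38 assembly with GENCODE M21 genes, *Folr2* lies at chr7:101839988-101857194 and *Lyve1* at chr7:110850607-110863239, both on the minus strand of chromosome 7. *Mrc1* lies at chr2:14229392-14332057 on the plus strand, *C1qa* at chr4:136895917-136898803, *Cbr2* at chr11:120729489-120732114 and *F13a1* at chr13:36867178-37050244 on the minus strand, and *Cd163* at chr6:124304656-124330527 on the plus strand.

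To see what the members share beyond the rule, they were set beside cells of the same libraries with at least 5 *C1qa* UMIs but no *Folr2* and under 2 *Mrc1* UMIs, under the same other limits, called C1q macrophages without Folr2. There were 79, 60, 136 and 212 of these in libraries 1 to 4, with a median of 6276, 19351, 11285 and 10919 UMIs. Libraries 1 to 3 had at least 50 cells of both kinds and were used for ratios. The members were deeper in libraries 1 and 3 and shallower in library 2. Among 4001 genes with at least 50 CPM in either kind of cell in any of the 3 libraries, 26 (0.65%) were at least 2-fold higher in the members in each library and 12 (0.3%) at least 2-fold lower, on the scale of CPM + 10. When a library was left out, so that the other 2 decided, 35 to 44 genes were higher and 30 to 36 lower. Among them were 24 to 26 of the 26 and 11 or 12 of the 12. A gene 2-fold apart in all 3 libraries is so in any 2. That overlap was therefore fixed in advance, but for genes lost to the limit of 50 CPM. With the rule applied after thinning to 5000 UMIs, 21 genes were higher and 27 lower, with 15 of the 26 and 7 of the 12 among them. *Pf4*, *Fcrls*, *Selenop*, *Npl*, *Bmp2*, *Hpgd* and *Blvrb* were among the 11 higher genes lost, and *Plac8*, *C3*, *Malt1*, *Plaur* and *Traf1* were the 5 lower genes lost. As a mean over cells, 15 of the 26 and 10 of the 12 were kept, without *Wwp1*, *Fcgrt* and *C4b* among others. Without the *Cxcl9* limit library 4 also decided, and 12 of the 26 were kept. *Cbr2*, *Cd163*, *Maf*, *Gas6*, *Fcrls*, *Slco2b1* and *Npl* were then among those lost. Over the 17 alternatives 3 higher genes (*F13a1*, *Stab1* and *Itsn1*) and 3 lower genes (*Ccr2*, *Il1b* and *Napsa*) counted every time, *Itsn1* being named after its values were seen. *Folr2* and *Mrc1* separate the sets by choice, and genes that go with them must differ, so these counts describe the sets and nothing is read from the percentages.

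Among the 26 higher genes, those known from tissue macrophages had the highest mean ratios. *Cbr2* stood first, with log2 ratios of 3.39, 4.57 and 2.71 in libraries 1 to 3, against 8.33, 1.84 and 15.7 CPM in the C1q macrophages without Folr2. *Cd163*, the receptor that takes up hemoglobin bound to haptoglobin, was at 101, 800.1 and 45.7 CPM in the members of libraries 1 to 3 and at 1.39, 34.9 and 1.96 in the others, log2 ratios of 3.29, 4.17 and 2.22. *F13a1*, the A chain of coagulation factor XIII, was at 452, 2264 and 422 CPM against 73.5, 936 and 66.8, ratios of 2.47, 1.26 and 2.49. Monocytes, here cells chosen by *Ly6c2*, *Plac8* and *Csf1r*, held *F13a1* too, at 498 CPM (95% interval 407 to 604) in the 15 of library 1, an interval that holds the members' value, and at 1103 in the 45 of library 2. In all 3 genes the members of library 2 had the highest level. *Pf4*, the chemokine platelet factor 4, was at 1813, 6816 and 3326 CPM against 261, 1917 and 769.8. The transcription factor gene *Maf* had log2 ratios of 2.05, 1.61 and 1.93, with a UMI in 94.4, 84.9 and 97.3% of members and 5.76, 5.65 and 11.5% of endothelial cells.

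Other genes among the 26 had varied roles. *Stab1*, the scavenger receptor stabilin 1, was at 641, 415 and 740.1 CPM in libraries 1 to 3 against 176, 126 and 283. *Gas6*, which bridges phosphatidylserine on dead cells to the receptors MERTK and AXL, was at 404, 62.5 and 423 against 186, 1.84 and 111, with 217, 88.6 and 249 CPM in endothelial cells, above the members in library 2, and it no longer counted as higher when simulated doublets were left out. *Selenop*, the secreted selenium carrier, was at 3384, 496 and 3189 against 1469.5, 108 and 806. The mean log2 ratios of these 3 genes were 1.60, 1.85 and 1.75. *Fcrls* (an Fc receptor-like protein, 1.81), *Slco2b1* (an organic anion transporter, 1.80), *Wwp1* (a ubiquitin ligase, 1.78) and *Fcgrt* (the neonatal Fc receptor, 1.77) had mean ratios in this range too, as had *Npl* (a sialic acid lyase, 1.75), *C4b* (complement C4, 1.72) and *Bmp2* (a bone morphogenetic protein, 1.66). In *Bmp2*, 1 cell gave 32.8% of the UMIs of library 1 and 1 cell 45% of those of library 2. *Blvrb*, which reduces biliverdin made from heme, had a mean log2 ratio of 1.17.

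**Figure D2:**
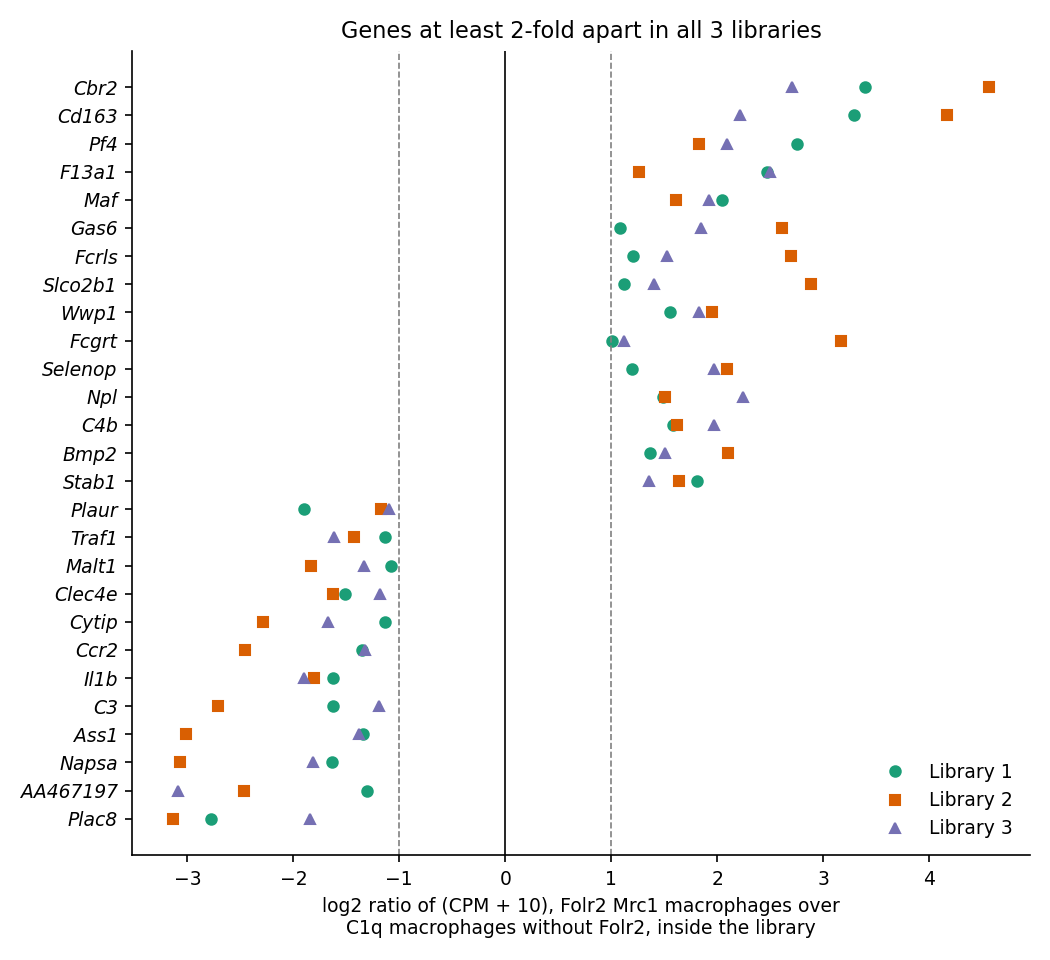
Log2 ratio of CPM + 10 in Folr2 Mrc1 macrophages over C1q macrophages without Folr2, inside libraries 1, 2 and 3 (markers). Shown are the 15 genes with the highest mean ratio among those at least 2-fold higher in each library, and the 12 genes at least 2-fold lower in each. Dashed lines mark a 2-fold difference. *Cbr2* and *Cd163* lie farthest to the right, and *Plac8* farthest to the left by mean ratio.

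Of the 12 genes lower in the members, *Plac8* and *Ccr2* are known from monocytes that have recently entered a tissue. *Plac8*, a monocyte gene, was at 2.41, 18.7 and 3.91 CPM in the members of libraries 1 to 3 and at 74.9, 242 and 39.9 in the C1q macrophages without Folr2, log2 ratios of -2.77, -3.13 and -1.84. *Ccr2*, the receptor for CCL2, was at 144, 47.9 and 122 against 383, 308 and 321. *Il1b*, the inflammatory cytokine interleukin 1 beta, was at 739, 1499 and 393 against 2305, 5254 and 1497. All 3 were lower in the members of each library. *Ccr2* had a UMI in 21.3, 11.0 and 28.2% of members and in 1.90, 3.79 and 3.96% of endothelial cells, and *Il1b* in 55.1, 68.5 and 48.6% and 8.86, 53.8 and 14.1%. Endothelial cells were shallower, so the 68.5% of library 2 is not read as expression of *Il1b*. The protease gene *Napsa* (-2.17), the complement gene *C3* (-1.84), *Ass1* (argininosuccinate synthase, -1.91), *Clec4e* (the receptor Mincle, -1.44) and *Plaur* (the urokinase receptor, -1.39) were among the rest, by mean log2 ratio. *AA467197* (-2.28), *Cytip* (-1.70), *Malt1* (-1.41) and *Traf1* (-1.39), of which *Malt1* and *Traf1* encode signalling proteins of the NF-kappa B path, completed the 12.

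Gene lists gave the same comparison by role. Of the 31 genes listed for long-lived heart macrophages that are in the table and outside the rule, 22 had at least 50 CPM, 11 were higher and 0 lower, beside 0.65% and 0.3% of all genes, with a median mean log2 ratio of 1.58 beside 0.04 over all 4001 genes. *Hpgd* (which breaks down prostaglandins, 1.56) and *Fxyd2* (a sodium pump subunit, 1.43) were among the 11, though *Fxyd2* was lost under 6 alternatives, among them the stricter cell filter and leaving out library 1. *Lyve1*, the hyaluronan receptor, was at 39.4, 321 and 10.0 CPM against 0, 1.84 and 2.62 and missed the count in library 3, with log2 ratios of 2.30, 4.81 and 0.67. *Timd4* was in few members, with a UMI in 9, 9, 7 and 0 cells of libraries 1 to 4 and at most 17.9 CPM. The 4 receptor genes *Cd209b*, *Cd209d*, *Cd209f* and *Cd209g* had 0 UMIs in all 435 cells, which at 3 counts allows up to 0.733 CPM in library 3 and 7.53 in library 4. Of the 15 tested genes listed for infiltrating monocytes, 2 were lower and 0 higher, beside 0.3% and 0.65% of all genes, with a median of -1.43. The lists were drawn up with earlier results of these data known.

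Of the other lists, endocytic receptors had the highest median. Over all genes 0.65% were higher and 0.3% lower. Endocytic receptors had 3 higher and 0 lower of 12 tested, with a median mean log2 ratio of 1.33, and genes for the clearance of dead cells 2 higher and 0 lower of 14, with a median of 0.21. Heme and iron genes had 2 higher and 0 lower of 13 (0.52), complement genes 1 higher and 1 lower of 11 (0.34), chemokines 1 higher and 0 lower of 18 (0.24) and genes of lipid-laden macrophages 0 higher and 0 lower of 15 (0.20). Genes induced by interferon gamma had 0 higher and 0 lower of 11 (0.28) and those of type I interferon 0 higher and 0 lower of 6 (0.05). Among the chemokines, *Ccl8* stood out in 2 of the 3 libraries, at 1339, 5.68 and 761 CPM against 133, 7.35 and 24.2. In library 1 a single cell gave 50.5% of the *Ccl8* UMIs of the members, and in library 3 the highest cell gave 9.19%. *Ccl8* had a UMI in 52.8, 6.85 and 51.4% of members of libraries 1 to 3 and in 2.74, 1.23 and 5.79% of endothelial cells.

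Library 2 stood apart from libraries 1 and 3 within the members. This contrast was added after the data were seen. Among 3674 genes tested, 297 (8.08%) were at least 2-fold higher in the members of library 2 than in those of both other libraries and 336 (9.15%) at least 2-fold lower. Between libraries 1 and 3, 59 genes (1.61%) were at least 2-fold higher in library 1 and 60 (1.63%) lower. The C1q macrophages without Folr2 split in the same manner, with 277 of 3533 genes (7.84%) higher and 448 (12.7%) lower in library 2. Between libraries 1 and 3 they had 69 genes (1.95%) higher in library 1 and 101 (2.86%) lower. Such a difference between libraries therefore was not confined to the members. What the graft, its handling and its capture each add to library 2 cannot be told apart.

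Genes of long-lived macrophages went both ways in library 2. *Lyve1* was at 39.4, 321, 10.0 and 12.5 CPM in libraries 1 to 4, with a UMI in 15.7, 63.0, 6.95 and 14.3% of members. After thinning to 5000 UMIs, without shallower cells, 43.5% (95% interval 31.6 to 56.0) of the members of library 2 kept a *Lyve1* UMI. The shares were 7.32%, 4.10% and 7.14% in libraries 1, 3 and 4. Endothelial cells had a *Lyve1* UMI in 5.88% in library 2 and a median of 7387 UMIs. *Cd163* (101, 800.1, 45.7 and 12.5 CPM) and *F13a1* (452, 2264, 422 and 321 CPM) were highest in library 2 as well. *F13a1* was found in 83.1, 100, 83.0 and 64.3% of members and in 1.75, 14.6, 4.84 and 5.48% of endothelial cells, where library 2 was highest too, at 47.1 CPM. *Mrc1* and *Folr2* are not compared, since the rule read them.

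*Cx3cr1*, the fractalkine receptor, lay the other way, at 257, 23.5, 456 and 10.0 CPM in libraries 1 to 4. *Fcrls* was at 794, 90.9, 1613 and 7.53 CPM and *Igf1*, the growth factor IGF1, at 363, 26.8, 432 and 7.53. Libraries 1 and 3 were high in all 3 genes, and libraries 2 and 4 low. *Apoe*, the lipid carrier apolipoprotein E, was at 39807 CPM (95% interval 39457 to 40159.5), 6733 CPM (95% interval 6589 to 6879.7), 42210 CPM (95% interval 42011 to 42409.6) and 5211 CPM (95% interval 4989.6 to 5440.4). Over single cells the *Apoe* quartiles were 20944 and 54116 CPM in library 1 and 3467 and 11310.3 in library 2, so the boxes between the quartiles did not overlap. Endothelial cells carried *Apoe* at 1348, 219.8, 1390.0 and 304 CPM, with the same libraries low. *Gas6* (404, 62.5, 423 and 12.5 CPM) and *Selenop* (3384, 496, 3189 and 629.8 CPM) were also high in libraries 1 and 3 and low in libraries 2 and 4. Endothelial cells moved the same way, with *Gas6* at 217, 88.6, 249 and 24.1 CPM, above the members in libraries 2 and 4, and *Selenop* at 548, 212, 441 and 115. Of the 22 listed genes of long-lived macrophages that were tested, 7 were higher in library 2 and 8 lower, beside 8.08% and 9.15% of all genes.

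Chemokine genes were mostly higher in library 2, 11 of 16 tested against 1 lower, beside 8.08% and 9.15% of all genes. The 18 chemokine genes summed to 11314, 34541, 11299 and 20745 CPM in the members of libraries 1 to 4 and to 9069.8, 35515, 6682 and 10942 in the C1q macrophages without Folr2, so library 2 was highest in both sets. *Ccl2*, which draws CCR2-bearing monocytes, was at 772, 3714, 555 and 1234 CPM in libraries 1 to 4, *Ccl6* at 598, 4764, 353 and 1814, *Ccl24* at 13.7, 325, 14.4 and 0 and the neutrophil chemokine *Cxcl3* at 1.61, 1069, 47.7 and 110.4. Endothelial cells held *Ccl2* at 107, 611, 116 and 389 CPM, *Ccl6* at 12.2, 323, 14.3 and 49.6, *Ccl24* at 0.117, 18.1, 0.273 and 0.204 and *Cxcl3* at 1.17, 540.0, 6.61 and 12.1, with library 2 highest in all 4. *Cxcl3* had a UMI in 75.3% of members and 63.5% of endothelial cells of library 2 and is not read as expression by the members. The 7 neutrophil genes in the members, at 67.5, 962, 63.1 and 437 CPM, moved with the chemokines, and their part in the result was not tested. The chemokine lower in library 2 was *Ccl8*, at 1339, 5.68, 761 and 5798 CPM. *Cxcl13* was at 893 CPM in library 2, with a UMI in 5 cells and 66.8% of the UMIs from 1 of them. *Mt2*, a metallothionein, was at 129, 3001, 118 and 178 CPM. The acute-phase gene *Saa3*, at 111, 3127, 6.60 and 5706 CPM, had 29.7% of its library 2 UMIs in 1 cell.

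**Figure D3:**
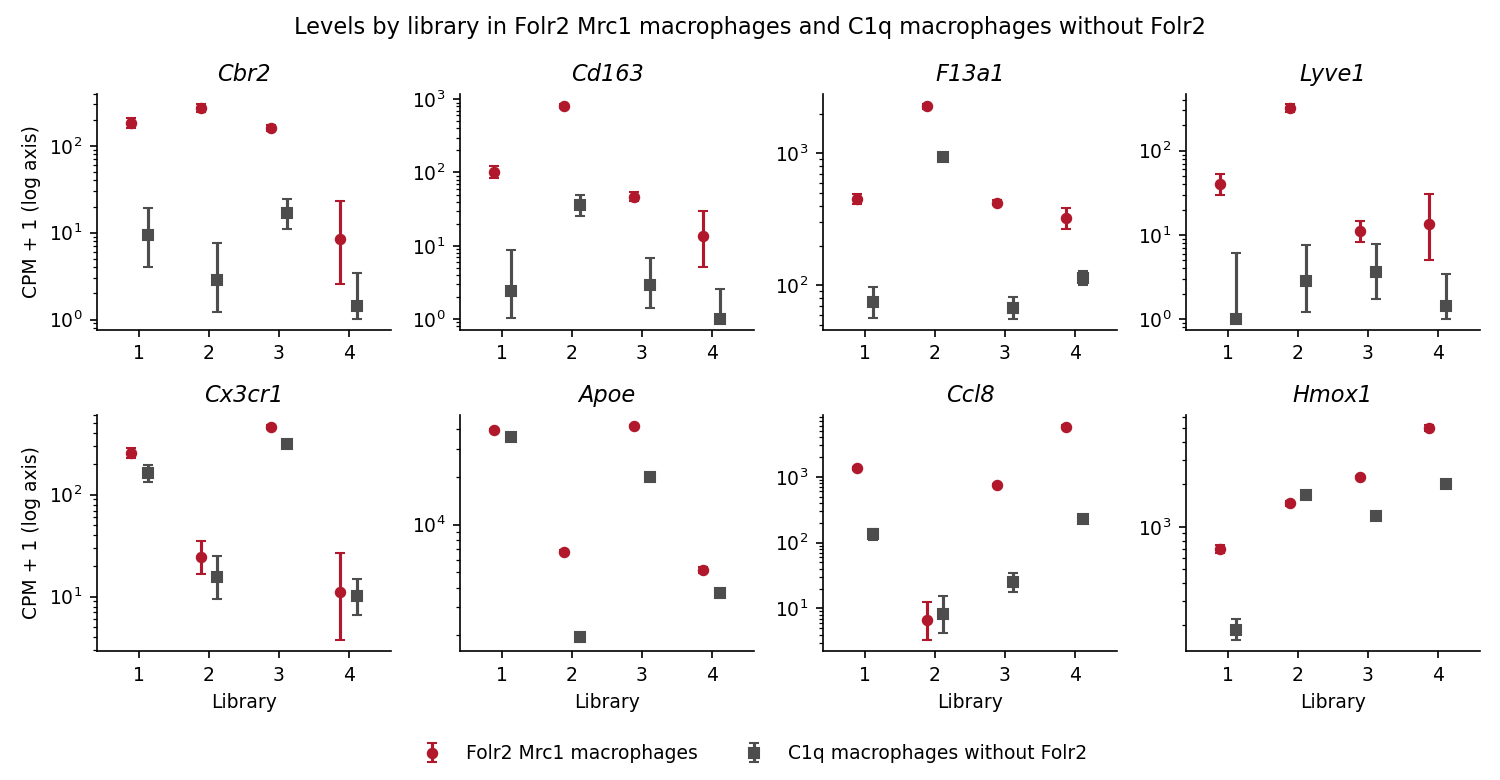
Level (CPM + 1, log axis) of 8 genes in libraries 1 to 4 in Folr2 Mrc1 macrophages (circles) and in C1q macrophages without Folr2 (squares), with exact Poisson 95% intervals. *Cbr2*, *Cd163* and *F13a1* are higher in the members in libraries 1 to 3, *Lyve1* is high only in the members of library 2 among the 8 values, and *Cx3cr1* and *Apoe* are low in libraries 2 and 4 in both sets.

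MHC class II genes differed widely between the libraries. *H2-Aa*, the alpha chain of the class II molecule I-A, was at 4823 CPM (95% interval 4702 to 4947), 238 CPM (95% interval 211 to 267), 933 CPM (95% interval 904 to 964) and 3897 CPM (95% interval 3705 to 4095) in libraries 1 to 4. *Cd74*, the invariant chain that escorts class II molecules, had a UMI in 93.3, 86.3, 73.7 and 100% of members. The 10 class II genes together reached 26357, 2775, 5305 and 20517 CPM. Of the 7 tested, 6 were at least 2-fold lower in library 2 than in both libraries 1 and 3, beside 9.15% of all genes, with a median log2 ratio of -2.79. These are summed levels, and between libraries 2 and 3 the median cell ran the other way, at 2039.6 and 474 CPM over the 10 genes and at 1748 and 162 for *Cd74*. *Ciita*, the factor that switches on class II genes, was at 52.3, 0, 16.4 and 52.7 CPM, with 0 UMIs in library 2, which allows up to 2.43 CPM. In the C1q macrophages without Folr2 the same 10 genes reached 35788, 1286, 30342 and 30969 CPM. Libraries 1 and 4 were thus high in both sets and library 2 low in both, while library 3 was low in the members alone. Against those cells, 0 of the 7 tested class II genes were higher and 0 lower in all 3 libraries, beside 0.65% and 0.3% of all genes.

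The spread over single cells was wide. Summed over the 10 class II genes, the members of library 1 ran from 90.0 to 109899 CPM, with a median of 23481 and quartiles of 897 and 52987. In library 3 the median was 474 CPM and the highest cell 89047, with 10 cells at 0. Library 2 had a median of 2039.6 and a highest cell of 13793, and library 4 quartiles of 14076 and 26443. Libraries 1 and 3 therefore held members with nearly no class II transcripts beside members with many. Endothelial cells had a *Cd74* UMI in 27.0%, 13.1%, 38.2% and 99.0% in libraries 1 to 4, at 374, 57.8, 283 and 3105 CPM. The study reports an endothelial cluster, nearly all from allogeneic grafts, that expresses class II genes itself. The endothelial values are therefore no measure of free RNA alone, and how far free RNA adds to the lowest members was not tested.

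**Figure D4:**
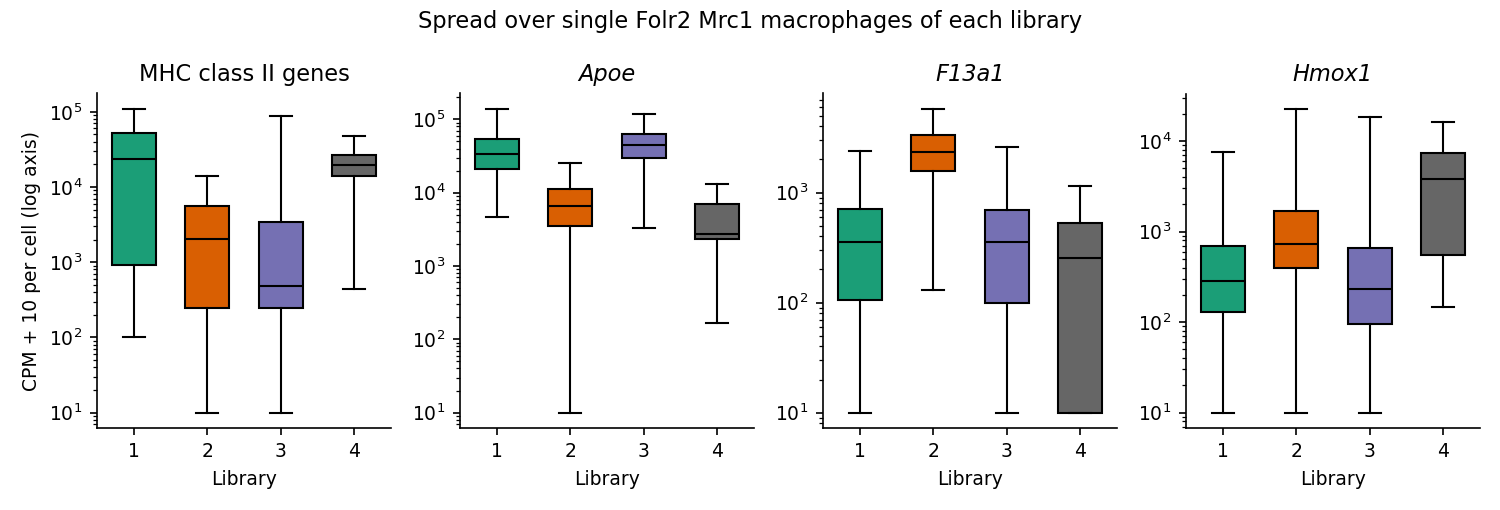
Spread over single Folr2 Mrc1 macrophages of the summed MHC class II genes, *Apoe*, *F13a1* and *Hmox1* in libraries 1 to 4, as CPM + 10 per cell on a log axis. Boxes span the quartiles with the median as a line, and whiskers reach the lowest and highest cell. Class II reaches 109899 CPM in a cell of library 1 and 89047 in one of library 3, *Apoe* is low in libraries 2 and 4, *F13a1* is high in library 2 and *Hmox1* in library 4.

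The sequences before the starts are shown for the 3 listed class II genes that hold both motifs named below. They are those of the reference assembly, and the sequence of the BALB/c donors was not examined. Class II promoters are known for an X box and a Y box, bound by RFX and by NF-Y, at which CIITA is recruited. The sequences are RefSeq's, in GRCm38.p6, 5′ to 3′ on the strand of the gene, from 110 to 31 bases before the start. *H2-Aa* is at chr17:34287854-34287933 on the minus strand, and *H2-DMb1* at chr17:34153081-34153160 and *H2-Eb1* at chr17:34305757-34305836 on the plus strand. Capitals mark ATTGG, the core of the Y box, and CTNGNAACT, a form of the X box, each searched on both strands.
H2-Aa: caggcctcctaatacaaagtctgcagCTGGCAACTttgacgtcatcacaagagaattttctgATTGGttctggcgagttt
H2-DMb1: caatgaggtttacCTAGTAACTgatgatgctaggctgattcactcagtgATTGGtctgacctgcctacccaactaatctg
H2-Eb1: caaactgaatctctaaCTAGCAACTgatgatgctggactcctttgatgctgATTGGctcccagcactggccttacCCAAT

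The starts of the motifs lay 36, 36 and 35 bases apart in *H2-Aa*, *H2-DMb1* and *H2-Eb1*, and the run CCAAT at the end of the *H2-Eb1* stretch is ATTGG on the other strand. Of the 10 class II genes, 7 had a promoter in the table and 3 of these held both motifs in the 250 bases before the start. Among all 32851 promoters of that table, 33.8% held ATTGG, 3.47% held CTNGNAACT and 1.22% held both. *H2-DMa*, which held no CTNGNAACT at either of its listed starts, was also at least 2-fold lower in library 2 than in libraries 1 and 3. The motif letters were set after the sequences were seen, and a match is a description, not a bound site. The levels of the 3 genes in the members were 4823, 238, 933 and 3897 CPM for *H2-Aa*, 306, 13, 107 and 424 for *H2-DMb1* and 4317, 255, 789 and 2584 for *H2-Eb1* in libraries 1 to 4. In each of the 3 genes library 2 was lowest and library 3 next to it in summed UMIs. The median cell ran the other way for *H2-Aa*, at 85.8 CPM in library 2 and 20.6 in library 3, with 31 of 73 and 129 of 259 cells at 0.

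The 14 members of library 4 differed from those of the other libraries, in part as other cells of library 4 did. *Hmox1*, the heme oxygenase, was at 699, 1467, 2254 and 5023 CPM in libraries 1 to 4, highest in library 4. *Plac8* was at 2.41, 18.7, 3.91 and 1122 CPM and *Ly6c2*, a monocyte surface antigen, at 0, 10.5, 1.22 and 314. In library 4 the C1q macrophages without Folr2 were higher in both, at 2599 and 835 CPM, and endothelial cells were at 663 and 185, with a UMI in 90.5 and 42.4% of them against 100 and 78.6% of members. High levels of both genes thus went with the library, not with the members alone. Genes induced by interferon gamma, outside the rule, summed to 1409, 584, 959.9 and 7861 CPM. The GTPase gene *Gbp2* was at 64.3, 3.25, 20.5 and 908 CPM. The C1q macrophages without Folr2 showed this as well, with 898, 528, 945 and 11288 CPM over the list, so library 4 was high in both sets. *Slco2b1*, *Hpgd* and *Mgl2* had 0 UMIs in these 14 cells, which allows up to 7.53 CPM of each. The C1q macrophages without Folr2 of library 4 had 0, 0 and 3.04 CPM, so low values were shared there. With 14 cells, 1 cell could give much of a gene, as with 44.9% of *Pf4* and 45.2% of *Saa3*.

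The 104 cells of library 4 that missed the rule by *Cxcl9* alone were set beside these 14 after the data were seen. *Ccl8* was at 5798 CPM in the 14 members and at 11615 (95% interval 11494 to 11737) in the 104 cells, against 231 in the 212 C1q macrophages without Folr2 of that library. It had a UMI in 96.2% of the 104 cells and in 50.5% of endothelial cells of library 4, which lay at 98.6 CPM. *Stab1* was at 396, 190.4 and 115 CPM in the 3 sets, and *Selenop* at 629.8, 503 and 168. *Hmox1* was at 5023, 1948 and 2022 CPM, so the 104 cells did not share the high value of the 14. *Cbr2* was at 10.9 CPM and *Cd163* at 4.29 in the 104 cells, as low as in the members of that library.

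Library 4 also held nearly all cells with at least 5 UMIs of both *C1qa* and *Cxcl9*, 2037 of 2046, and of the monocytes, 2311 of 2380. Beside the 14 members, the Cxcl9-rich macrophages of that library had *Stab1* at 67.9 CPM and the monocytes at 30.2, against 396 in the members. *Apoe* was at 5211 CPM in the members, 1850.2 in the Cxcl9-rich cells and 213 in the monocytes. *Il1b* ran the other way, at 389, 2454 and 4629 CPM, and endothelial cells of library 4 held 487 CPM, so the members' value is not read as expression.

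Members also differed from cell to cell within a library. After thinning to 5000 UMIs, which left out 7, 4, 15 and 0 shallower members, *Cbr2* was found in 42.7%, 49.3%, 38.9% and 7.14% of members of libraries 1 to 4 and *F13a1* in 67.1%, 100%, 68.0% and 50%. Endothelial cells, not thinned, had a *Cbr2* UMI in 0.521, 1.02, 1.66 and 0.484%. In library 3, where most members lay, the 95 cells with a *Cbr2* UMI had *F13a1* at 676 CPM and the 149 without at 334. *Cd163* was at 109 and 33.6 CPM in these, and *Maf* at 707 and 481. In library 1 the pairs were 811 and 298 for *F13a1* and 177 and 63.8 for *Cd163*. Cells with *Cbr2* thus had more *F13a1* and *Cd163* in both libraries. All values in this comparison are CPM in the thinned cells.

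*Ccr2*, found in 19.5%, 5.80%, 22.1% and 21.4% of thinned members and, without thinning, in 1.90, 3.79, 3.96 and 22.3% of endothelial cells, went with class II in library 3. In libraries 2 and 4 the share of members with *Ccr2* is not read as expression. In library 3 the 54 members with a *Ccr2* UMI had the class II genes at 14533 CPM and the 190 without at 4828. The same cells had *Folr2*, a gene of the rule, at 167 and 355 CPM, *Cd163* at 14.8 and 76.8 and *Il1b* at 841 and 337. The cells with *Ccr2* were higher in class II and *Il1b* and lower in *Cd163*. *Cx3cr1* was found in 48.8%, 5.80%, 73.8% and 7.14% of thinned members and in 1.25, 0.431, 5.26 and 1.13% of endothelial cells. In library 3 the 180 cells with it had *Hmox1* at 614 CPM and the 64 without at 3313. In library 1 *Hmox1* lay the other way, at 850 and 452 CPM.

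In library 2 the 30 thinned members with a *Lyve1* UMI and the 39 without had *Cbr2* at 407 and 138 CPM and *Cd163* at 880 and 605. *Fn1*, fibronectin, was at 107 and 451 CPM and *Spp1*, osteopontin, at 80 and 513. Cells with *Lyve1* were thus higher in *Cbr2* and *Cd163* and lower in *Fn1* and *Spp1*. The median cell had 16209.5 and 15279 UMIs before thinning. These pairs split the cells of a single library and a few cells can carry a gene, so they are descriptions.

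**Figure D5:**
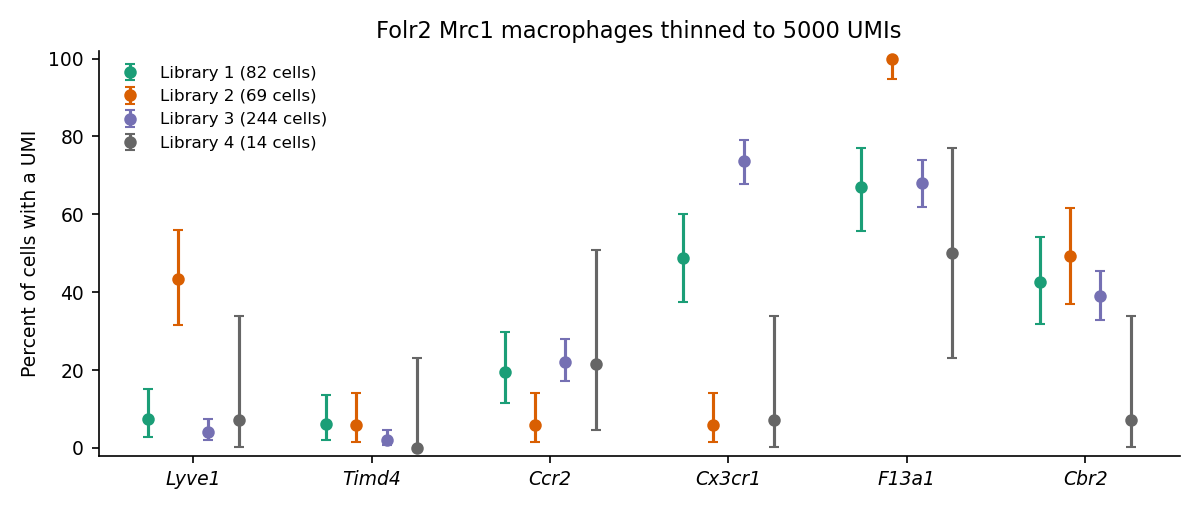
Percent of Folr2 Mrc1 macrophages with a UMI of 6 genes in each library after thinning to 5000 UMIs, without shallower cells, with exact 95% binomial intervals. *Lyve1* is highest in library 2, *Cx3cr1* in libraries 1 and 3, and *F13a1* was found in all 69 thinned cells of library 2. Library 4, with 14 cells, has wide intervals.

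Transcripts of other cell types were present and moved with the libraries. The 7 neutrophil genes summed to 67.5, 962, 63.1 and 437 CPM in the members of libraries 1 to 4, led by *S100a8* at 8.04, 403, 8.31 and 115, with 1 of the 7 at 0. *S100a8* had a UMI in 10.1, 100, 12.4 and 64.3% of members and in 8.31%, 98.5%, 10.9% and 19.5% of endothelial cells, where library 2 lay at 2310.0 CPM. In library 2 *S100a8* and *S100a9* were thus at background in the members, and the 3 tested neutrophil genes that were higher there are not read as expression by them. The 9 cardiomyocyte genes summed to 1694, 105, 1069 and 17.6 CPM (led by *Tnnt2*, none at 0) and the 7 fibroblast genes to 1669.8, 503, 3336 and 108 (led by *Col3a1*, none at 0), both low in library 2. In library 3, 1 cell gave 75.5% of *Tnnt2*, and in library 2, 1 cell gave 92.9% of *Col3a1*. Endothelial genes other than *Cdh5* summed to 301, 845, 313 and 90.3 CPM, mural genes to 393, 108, 412 and 20.1, red cell genes to 182, 115, 43.0 and 32.6 and B cell genes to 275, 11.4, 222 and 7.53. T and NK cell genes other than *Cd3e* stayed at 3.22, 0.811, 1.96 and 47.7 CPM, dendritic cell genes at 17.7, 8.93, 15.6 and 7.53, Schwann cell genes at 1.61, 0.811, 2.20 and 0 and mesothelial genes at 3.22, 6.49, 1.22 and 0. In the C1q macrophages without Folr2 the 7 neutrophil genes summed to 87.4, 7263, 60.9 and 330 CPM in libraries 1 to 4. The 7 fibroblast genes summed there to 4654, 48.7, 6619 and 885 CPM and the 9 cardiomyocyte genes to 3271, 56.1, 393 and 30.4. These sums differed from those of the members in both directions. The part of such transcripts in the differences between libraries, and in the ratios of members over those cells, was not tested.

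Simulated doublets marked 18 of the 435 members, 4.14%, where 5% of all kept cells were marked, and the members were not filtered by it. Across the libraries 308 barcodes occurred in more than 1 library, and 1 of them belonged to a member.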

How the data were processed

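The deposited values are raw UMI counts of genes in single cells. The authors obtained them with Cell Ranger (3.0.0 in the file header, build mm10 per the labels) from 10x 3′ v3 libraries, with no normalization and with 30905 genes and 53824 cells in a merged matrix. Library totals were 96020294, 115162601, 138892048 and 166079145 UMIs in libraries 1 to 4. Following the study's methods, a cell needed over 200 genes and had to have under 20% of its UMIs from mitochondrial genes. The members, the gene lists and the comparison between libraries were chosen with earlier results of these data known. The lists hold 329 names, 326 of them in the matrix, and some listed genes are not reported here.

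Levels are UMIs of a gene summed over a set of cells, per 1000000 non-mitochondrial UMIs of that set (CPM), with exact Poisson 95% intervals, and shares carry exact Clopper-Pearson intervals. Both cover counting error only. Ratios were taken inside each library with at least 50 cells of both kinds, as log2 of CPM + 10, for genes with at least 50 CPM. A gene counted as higher or lower when it was at least 2-fold apart in the same direction in every such library. Genes named are those of the lists, and the 15 highest and 15 lowest by mean ratio among genes that counted (12 were lower in all), without the 7 genes of the rule, mitochondrial genes and unnamed models. For library 2 the 12 highest and 12 lowest genes were also listed. Shares of cells with a UMI were repeated after cells were thinned at random to 5000 UMIs, and shallower cells were left out.

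Doublets were simulated per library, and the 5% of cells with the highest score among 50 neighbours on 10 components of 2000 variable genes were marked, as an alternative only. The merged matrix was treated as 1 pooled sample, because no file or label used here pairs a library with a graft, and no test was run. Gene positions are from GENCODE M21 on GRCm38, promoter sequences from RefSeq on GRCm38.p6. The ratio step was tested on simulated counts in which 200 genes were changed 4-fold. The other steps were not tested in this way, and changes near 2-fold were not tried. Values were computed with scipy 1.17.1, numpy 2.4.6 and pandas 2.3.3, neighbours with scikit-learn 1.9.0 and plots with matplotlib 3.10.9, in Python 3.11.15. Alternatives were the cell filter, the UMI limits, thinning, doublets, single libraries, the pseudocount, the weight of cells, the denominator, the filter on low values and the minimum number of cells. Dropping the limit on *Cxcl9* and allowing 1 *Cdh5* UMI were chosen after seeing the data.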

Additional observations from a re-analysis of the deposited data

How the results depend on the processing

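No paired analysis was possible between allogeneic and syngeneic grafts because no file pairs a library with a graft. The ratios of the members over C1q macrophages without Folr2 were taken inside each library and need no graft label. They were not tested, and no value comes from a test. The number of Folr2 Mrc1 macrophages and their shares depend on the UMI limits and on depth. With at least 2 *Folr2* and 4 *Mrc1* UMIs there were 264 members, 0.592% of kept cells (0.465% in library 1, 1.50% in library 3, 0.0619% in library 4). Thinning to 5000 UMIs, which left out shallower cells, gave 285 members. They were 1.08% of the thinned cells, not of all kept cells (1.12% in library 2, 2.31% in library 3). With over 500 genes and under 10% mitochondrial UMIs the share in library 3 was 3.11%. Without the *Cxcl9* limit the share was 1.21%, and 1.04% in library 4. With 1 *Cdh5* UMI allowed it was 1.25%, with 0.806% in library 2 and 3.39% in library 3. Leaving out single libraries gave 176 to 421 members, the lowest without library 3, and shares of 0.506% to 1.26%.

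Against C1q macrophages without Folr2, the counts of 26 higher and 12 lower genes became 40 and 31 with the stricter cell filter and 52 and 38 with the stricter UMI limits, both with 2 libraries in use. Of the 26 genes, 24 and 25 were among these. Without the *Cxcl9* limit 4 libraries were in use and 13 genes were higher, 12 of them among the 26. The lower count was 27 after thinning, 33 with a pseudocount of 1 CPM, 20 as a mean over cells and 19 with 1 *Cdh5* UMI allowed. After thinning and as a mean over cells 21 genes were higher each time, 15 of them among the 26 in both. Of the 12 lower genes, 7 were among the 27 after thinning and 10 among the 20 and among the 19. Leaving out single libraries gave 26 to 44 higher and 12 to 36 lower genes, the highest without library 3 and without library 2. In library 2 the lower count of 336 became 508 at 10 CPM or with no filter, and leaving out library 3 gave 415 higher and 405 lower genes. Of 459 ratios of 27 named genes over 17 alternatives, 433 moved by less than 1 SD between libraries, 26 by more, and 0 changed sign. Part of this was fixed in advance. Leaving out library 4, the filter on low values and the minimum number of cells left these mean ratios unchanged. Leaving out library 1, 2 or 3 could neither move a mean by 1 SD nor change its sign. The tally is therefore not read as a measure of steadiness. Other counts stayed within 1.5 times and other shares within their intervals. Library 4, with 14 members, limits every value given for it, and its levels rest on few cells.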

Other observations

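Other lists showed where the members stood by library. Immediate-early genes, which dissociation of tissue is known to raise, summed to 20003, 11241, 11532 and 6970.2 CPM in the Folr2 Mrc1 macrophages of libraries 1 to 4. In the C1q macrophages without Folr2 they summed to 15163, 7504, 12774 and 9325. Against those cells 0 of 15 tested were higher and 0 lower, beside 0.65% and 0.3% of all genes. *Jun* was at 2073, 757, 1056 and 208 CPM and *Fos* at 3041, 599.6, 1203 and 1109 in the members. Library 1 was highest in both genes. Growth factor and cytokine genes had 1 higher (*Gas6*, lost without simulated doublets) and 1 lower (*Il1b*) of 14, beside 0.65% and 0.3% of all genes. They summed to 3615, 3384, 3996 and 2662 CPM in the members. *Tnf* was at 191, 243, 212 and 261 CPM in the members and 204, 268, 209 and 289 in the other cells, and *Il10*, an anti-inflammatory cytokine, at 67.5, 132, 57.7 and 40.1 against 55.5, 26.6, 38.0 and 32.6.

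Transcription factor genes had 1 higher (*Maf*) of 17 tested, beside 0.65% of all genes. Chemokine receptor genes had 1 lower (*Ccr2*) of 6, beside 0.3% of all genes. *Klf2*, a factor of quiescent cells, was at 925, 418, 291 and 667 CPM in the members against 412, 119, 213 and 264. Genes of alternative activation had 0 of 7 higher and 0 lower, beside 0.65% and 0.3% of all genes. Within the members 4 of 7 were higher in library 2, beside 8.08% of all genes. These genes summed to 691, 3440.5, 693 and 5334 CPM in the members and 404, 6908, 633 and 2347 in the C1q macrophages without Folr2, which were thus high in library 2 as well. Cell cycle genes other than *Mki67* summed to 375, 276, 397 and 609.7 CPM in the members, led by *Hmgb2*. In the 14 cells of library 4 *Fth1*, the ferritin heavy chain, was at 33371 CPM, against 11575, 17554 and 20739.5 in libraries 1 to 3.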
